A study of Mus musculus with 9 samples.

Results

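The genes described are 10 genes that control or mark cell division and growth arrest, measured in mouse liver after alcohol feeding. They were taken by name from the deposited gene table: the CDK inhibitors Cdkn1a and Cdkn1b, the G1 cyclins Ccnd1, Ccnd2 and Ccne2, the proliferation markers Mki67 and Top2a, the growth arrest genes Gadd45a and Gadd45b, and Mdm2, the ubiquitin ligase that holds p53 in check. All 10 were found among the 26345 entries that carry a known transcript and a gene name, of 52151 entries in all. The 10 names occur on 13 entries, and 3 of these hold only transcripts assembled from the libraries and were not used as gene levels. On GRCm38 the entry of Gadd45b spans bases 80930073 to 80932204 of chromosome 10, that of Cdkn1a 29090976 to 29100727 of chromosome 17 and that of Ccne2 11191351 to 11204779 of chromosome 4.

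The pair-fed group (PF) comprised 3 libraries from C57BL/6 mice given an isocaloric control liquid diet for 5 weeks. The alcohol-fed group (AF) comprised 3 libraries from C57BL/6 mice given a Lieber-DeCarli liquid diet with alcohol for 5 weeks. The third group (AF with MNA) comprised 3 libraries from alcohol-fed mice injected intraperitoneally each day with 50 mg/kg of MNA, a compound that the labels do not spell out. The strain labels of these 3 libraries read C57BL/7, C57BL/8 and C57BL/9. All 9 libraries carry an age label of 8 weeks, no genetic change is named in any group, and the methods describe male mice killed after a fast. The methods describe larger PF and AF groups, and the labels do not say whether each library is 1 mouse. Each value comes from 1 library of whole liver RNA, and gene levels are in FPKM, fragment counts scaled to transcript length and to the fragments of the library.

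In the resting adult liver most hepatocytes are outside the cell cycle. Entry into the cycle is driven by D-type cyclins bound to CDK4 and CDK6 and by E-type cyclins bound to CDK2, which release E2F factors and switch on the genes of DNA replication. The inhibitors p21 (Cdkn1a) and p27 (Cdkn1b) bind these kinases and hold cells in G1. p53 raises the transcription of Cdkn1a, Gadd45a and Mdm2 after DNA damage and other stress, and the Mdm2 protein in turn leads p53 to degradation. Gadd45b is induced quickly by stress and inflammatory signals and is known as an early gene of liver regeneration.

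The upstream sequences of the members with the largest measured changes, Gadd45b and Cdkn1a, and of the 2 proliferation markers are shown because the members differ in the motifs they hold. RefSeq promoters (GRCm38.p6) matched 7 of the 10 members and gave 8 start sites, 2 of them for Cdkn1a, and Ccnd1, Ccnd2 and Ccne2 had no entry. Each sequence is the 250 bases before a start site, 5′ to 3′ on the strand of the gene, and capitals mark every motif match, on either strand. The regions are chr10:80929841-80930090 (plus strand) for Gadd45b, chr17:29090729-29090978 and chr17:29093519-29093768 (both plus strand) for Cdkn1a, chr7:135716380-135716629 (minus strand) for Mki67 and chr11:99024190-99024439 (minus strand) for Top2a.
Gadd45b: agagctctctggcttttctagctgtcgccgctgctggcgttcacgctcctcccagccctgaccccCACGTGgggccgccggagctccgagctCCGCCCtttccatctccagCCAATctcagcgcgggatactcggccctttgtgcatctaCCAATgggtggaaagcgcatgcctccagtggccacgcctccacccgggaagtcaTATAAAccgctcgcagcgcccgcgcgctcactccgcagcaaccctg
Cdkn1a, upstream start: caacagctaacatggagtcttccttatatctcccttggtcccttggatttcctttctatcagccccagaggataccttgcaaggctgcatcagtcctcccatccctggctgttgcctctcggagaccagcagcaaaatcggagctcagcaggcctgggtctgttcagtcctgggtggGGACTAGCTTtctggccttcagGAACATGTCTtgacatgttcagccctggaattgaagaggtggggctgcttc
Cdkn1a, downstream start: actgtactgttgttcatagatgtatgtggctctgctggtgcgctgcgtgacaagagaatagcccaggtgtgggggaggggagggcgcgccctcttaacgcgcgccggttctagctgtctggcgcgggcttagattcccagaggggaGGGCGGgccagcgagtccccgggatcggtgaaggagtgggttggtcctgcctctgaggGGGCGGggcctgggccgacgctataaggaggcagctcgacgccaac
Mki67: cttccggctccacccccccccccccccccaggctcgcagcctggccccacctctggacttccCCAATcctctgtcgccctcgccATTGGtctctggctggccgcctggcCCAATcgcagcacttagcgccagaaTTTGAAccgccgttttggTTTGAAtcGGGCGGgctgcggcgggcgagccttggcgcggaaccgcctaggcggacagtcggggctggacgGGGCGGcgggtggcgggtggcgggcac
Top2a: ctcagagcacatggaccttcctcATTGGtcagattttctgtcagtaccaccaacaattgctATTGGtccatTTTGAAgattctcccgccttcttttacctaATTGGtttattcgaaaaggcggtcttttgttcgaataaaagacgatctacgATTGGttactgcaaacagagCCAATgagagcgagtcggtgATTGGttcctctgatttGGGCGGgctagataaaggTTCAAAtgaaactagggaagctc

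The CHR element TTTGAA, known from promoters of genes that are repressed outside mitosis, occurred in 2 members, Mki67 and Top2a, with 2 matches in each, and in 16.0% of 32851 promoters of the same length. The CCAAT box (CCAAT) occurred in 6 members, against 33.8% of all promoters, and Top2a held 6 matches and Mki67 held 3. The GC box GGGCGG occurred in all 7 members with an entry, against 32.7% of promoters. Gadd45b was the only one of the 7 with a TATA box (TATAAA, 12.4% of promoters) and with an E-box (CACGTG, 6.02%). The CRE TGACGTCA (1.55% of promoters), the E2F site TTTCCCGC (0.895%) and the kappaB site (0.140%) had 0 matches in the members. The p53 response element was searched for after the sequences had been seen, first as its full consensus, which matched 0 members and 3 of 32851 promoters. A second search, for the p53 half-site, was then made and matched 3 members, namely Cdkn1a with 2 matches before its upstream start and Gadd45a and Mdm2 with 1 each, against 7.13% of all promoters. The half-site is contained in the full consensus, and no other 2 of these motifs overlapped in the printed matches. A match describes letters only, and a motif without a match says only that its letters were not in this window.

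The libraries were of similar depth, with a mean coverage of 5.84 to 8.30 reads per base for a transcript at 1 FPKM, and pairs of libraries correlated at 0.910 to 0.942 across genes. Intron signal differed: the summed FPKM of assembled transcripts inside introns was 9433 in AF replicate 3 and 8934 in AF with MNA replicate 1, against 2477 to 4937 in the other 7 libraries. This sum takes transcripts on either strand and does not measure unspliced RNA of the host genes. Summed hepatocyte markers were high in every library (18338 to 24873 FPKM). Lymphocyte markers summed to 1.53 to 2.30 FPKM in PF, 0.78 to 1.19 in AF and 1.22 to 1.80 in AF with MNA, and neutrophil markers to 0.33 to 0.96, 1.02 to 1.62 and 0.33 to 0.67. Kupffer cell markers summed to 65.4 to 79.6, 51.5 to 95.7 and 66.7 to 87.1 FPKM, erythroid markers to 333 to 452, 294 to 651 and 287 to 420, and stellate cell markers to 35.1 to 38.6, 31.0 to 43.7 and 33.8 to 48.0. Endothelial markers summed to 30.5 to 41.4, 39.7 to 58.1 and 44.8 to 58.3 FPKM and cholangiocyte markers to 6.05 to 6.45, 7.55 to 11.8 and 4.74 to 8.37. Of the tested markers, Tat (hepatocyte) and Marco (macrophage) rose and Alas2 (erythroid) fell in AF against PF by the threshold given with the first comparison. Over their whole lists, 4 of 8 tested hepatocyte markers were higher in AF (median log2 ratio 0.11), 3 of 7 Kupffer cell markers (-0.17) and 3 of 5 erythroid markers (0.20). In the lists without a marker past the threshold, 8 of 8 endothelial (0.47), 5 of 8 stellate cell (0.14) and 2 of 3 cholangiocyte markers (0.54) were higher. The call of Tat was lost without AF replicate 1 (log2 ratio 1.24), AF replicate 2 (0.83), PF replicate 1 (1.04) or PF replicate 3 (1.13). That of Marco was lost without AF replicate 1 (1.27), AF replicate 2 (0.88), PF replicate 2 (1.25) or PF replicate 3 (1.05). Marco and Alas2 also passed in AF with MNA against PF (log2 ratios 1.57 and -1.17), where the call of Alas2 was lost without AF with MNA replicate 1 (-0.80), PF replicate 2 (-1.12) or PF replicate 3 (-1.16).

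In PF livers, levels per length ran from Ccnd1, at 8.62 ± 3.95 FPKM (SD, n = 3), and Cdkn1b, at 5.19 ± 0.74, down to Mki67, at 0.173 ± 0.032, and Top2a, at 0.140 ± 0.026. Mdm2 (2.82 FPKM), Ccnd2 (1.37 FPKM) and Ccne2 (0.987 FPKM) lay between, and each of the upper 5 was separated from the next in order in all 3 PF libraries. From Gadd45a down, through Cdkn1a and Gadd45b to Top2a, the values of neighbours overlapped. In every library the G1 cyclins and p27 lay above Mki67 and Top2a. Cdkn1a shared its PF mean of 0.53 FPKM with Gadd45a. It had the highest mean in AF, which rested on AF replicate 2 alone, and the other 2 AF libraries lay below every AF value of Cdkn1b.

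**Figure D1:**
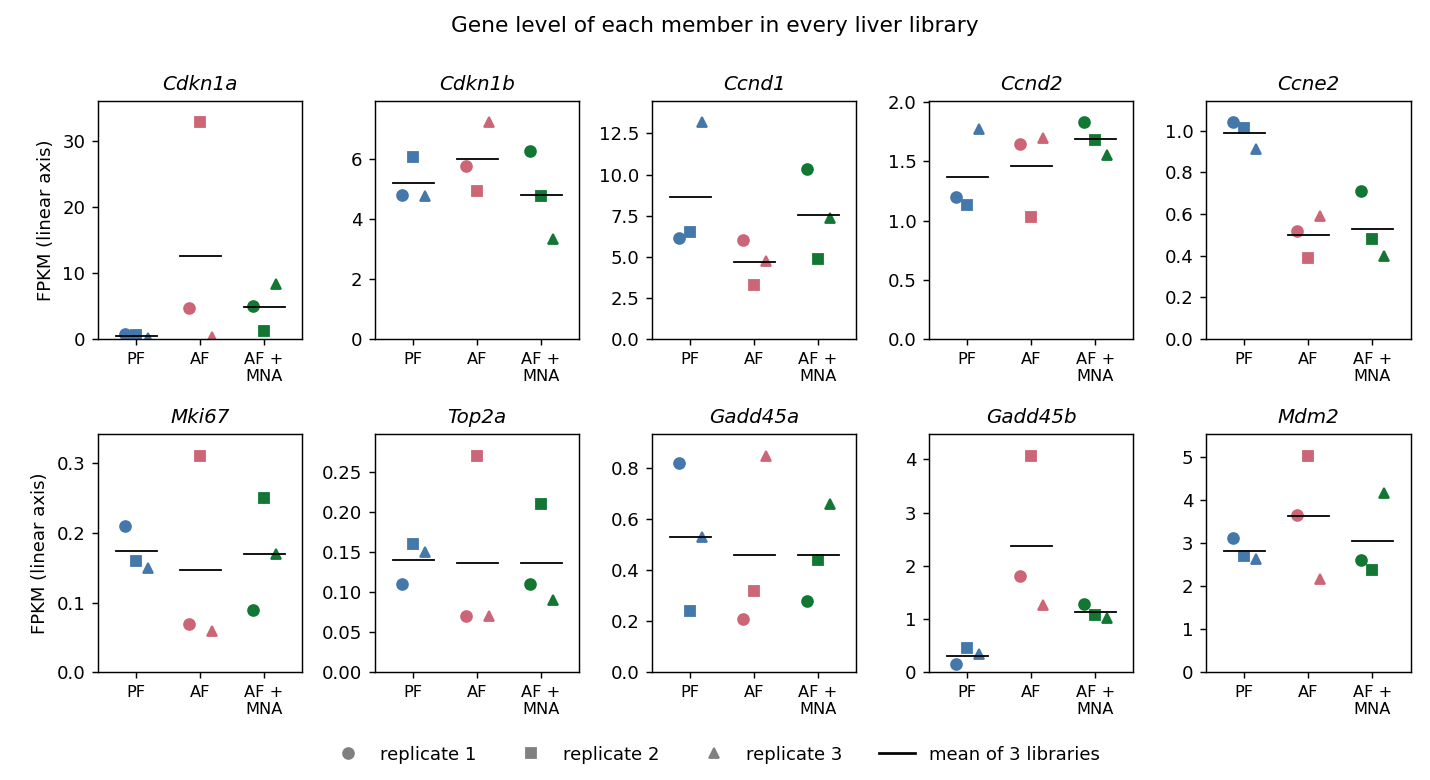
FPKM (linear axis from 0, own scale in each panel) of the 10 genes in the 9 liver libraries. Points are single libraries by replicate number and lines are the mean of 3. Gadd45b lies at 0.45 FPKM or below in PF and at 1.02 or above in both alcohol-fed groups, Ccne2 lies lower in both, and Cdkn1a reaches 32.84 FPKM in 1 AF library and 0.27 in another.

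The first comparison asks how alcohol feeding changed these genes (AF against PF). Of the 10 members, 7 averaged 0.5 FPKM or more in the 6 libraries and were tested. A gene was taken as changed at an unadjusted limma p under 0.05 with a log2 ratio of group mean FPKMs above 1 or below -1. These cutoffs are the ones the methods give for lncRNAs tested with Ballgown, applied here to genes with another test. Gadd45b was the 1 member that passed, against 4.3% of 12268 tested genes (1.95% higher and 2.35% lower). It met the 0.5 FPKM minimum only through AF (mean 2.38 FPKM), as its PF mean was 0.313 FPKM. At a Benjamini-Hochberg adjusted limma p under 0.05, 0 members and 0.326% of tested genes passed, while 2 members had an unadjusted p under 0.05 (11.7% of tested genes). The AF and PF values did not overlap for 3 members (18.3% of tested genes), with Gadd45b higher (8.18% of tested genes were separated this way) and Ccnd1 and Ccne2 lower (10.1%). The median log2 ratio of the 7 members was 0.20, and that of all tested genes was -0.03. In whole liver, a change in the number of cells of a type and a change in RNA per cell cannot be told apart.

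Gadd45b, a growth arrest and stress response gene on chromosome 10 whose upstream sequence with its TATA box is printed above, rose 7.60-fold in AF. Its level was 0.15, 0.45 and 0.34 FPKM in the PF livers, against 1.81, 4.07 and 1.26 FPKM in AF. The fold divides by a PF mean of 0.313 FPKM, a low level with few reads behind it. Every AF library was above every PF library, and AF replicate 2 was the highest. On the log2(FPKM + 1) scale the difference was 1.28 ± 0.30 (SE, 3 libraries a group, limma adjusted p = 0.194). The log2 ratio of the means was 2.93, and it was 2.29 without AF replicate 2, the lowest of the values with 1 library left out. Gadd45b passed the threshold with each of the 6 libraries left out in turn. Neutrophil and cholangiocyte markers were also higher in each AF library than in each PF library and lymphocyte markers lower, and their part in the result was not tested.

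Gadd45a, the family member that p53 controls directly, was at 0.82, 0.24 and 0.53 FPKM in the PF livers, against 0.21, 0.32 and 0.85 FPKM in AF. The groups overlapped almost fully and the mean was under the minimum for the model (exact permutation test, two-sided, p = 0.9, 3 libraries a group). With 3 libraries a group an exact permutation test cannot go below p = 0.1. Gadd45g, the remaining family member, was at 4.22, 2.74 and 4.81 FPKM in the PF livers, against 15.23, 20.26 and 3.57 FPKM in AF. Its groups overlapped through AF replicate 3, and it did not pass (log2 ratio 1.73, limma adjusted p = 0.456). Gadd45g was at 7.14, 7.60 and 6.42 FPKM in AF with MNA, above every PF library, with an unadjusted limma p under 0.05 against PF and a ratio short of the threshold (log2 ratio 0.85, adjusted p = 0.188).

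Cdkn1a, which encodes p21, had a higher mean in AF but did not pass the test. It was at 0.79, 0.63 and 0.17 FPKM in the PF livers, against 4.74, 32.84 and 0.27 FPKM in AF. AF replicates 1 and 2 were above all PF libraries, and AF replicate 3 lay inside the PF range. The ratio of the means was 23.8-fold (log2 ratio 4.57), with a difference on the log2(FPKM + 1) scale of 2.06 ± 1.08 (SE, limma adjusted p = 0.525). The highest AF library exceeded the lowest by 122-fold, and the SD of log2(FPKM + 1) within AF, 2.37, was above that of 99.8% of 12252 genes. Without AF replicate 3, the AF library with the highest intron signal, Cdkn1a passed the threshold (log2 ratio 5.15, limma adjusted p = 0.190). The part of that library's intron signal in the result was not tested. Without AF replicate 2 the log2 ratio was 2.24 and Cdkn1a did not pass (limma adjusted p = 0.667), and Gadd45b, at 2.29, then had the larger ratio. Cdkn1a also passed with all 6 libraries under a linear model with a library-size covariate and no moderation (limma's lmFit, adjusted p = 0.319), which called 2.73% of tested genes. That covariate is a sum of log2(FPKM + 1) values and not sequencing depth.

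Cdkn1b, which encodes p27, was at 4.79, 6.05 and 4.74 FPKM in the PF livers, against 5.77, 4.93 and 7.21 FPKM in AF. The groups overlapped, and the difference on the log2(FPKM + 1) scale was 0.16 ± 0.17 (SE, limma adjusted p = 0.746).

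Mdm2, both a target and an inhibitor of p53, was at 3.11, 2.70 and 2.64 FPKM in the PF livers, against 3.66, 5.03 and 2.17 FPKM in AF. As for Cdkn1a, AF replicates 1 and 2 lay above the PF range and AF replicate 3 did not, so that the groups overlapped. The fitted difference was 0.23 ± 0.24 on the log2(FPKM + 1) scale (SE, limma adjusted p = 0.756).

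Among the G1 cyclins, Ccne2, the E-type cyclin that activates CDK2, had an unadjusted limma p under 0.05 in AF with a ratio that lay just short of the threshold. It was at 1.04, 1.01 and 0.91 FPKM in the PF livers, against 0.52, 0.39 and 0.59 FPKM in AF. All AF libraries were below all PF libraries, and both groups were narrow. The log2 ratio of the means was -0.98 and the difference on the log2(FPKM + 1) scale was -0.41 ± 0.11 (SE, limma adjusted p = 0.258). It passed the threshold when PF replicate 3, AF replicate 1 or AF replicate 3 was left out, with log2 ratios of -1.04, -1.01 and -1.12.

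Ccnd1, the cyclin that couples growth signals to CDK4 and CDK6, was at 6.17, 6.52 and 13.18 FPKM in the PF livers, against 5.99, 3.29 and 4.76 FPKM in AF. The groups were separated by a narrow gap, and PF replicate 3 stood above the other PF libraries. The log2 ratio was -0.88, with a difference of -0.72 ± 0.31 on the log2(FPKM + 1) scale (SE, limma adjusted p = 0.447). Without PF replicate 3 the log2 ratio was -0.44, and Ccnd1 passed without PF replicate 1 (-1.07) or without AF replicate 1 (-1.10). Ccnd2, the second D-type cyclin measured, was at 1.20, 1.13 and 1.77 FPKM in the PF livers, against 1.65, 1.03 and 1.70 FPKM in AF. Its groups overlapped (log2 ratio 0.10, limma adjusted p = 0.934).

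**Figure D2:**
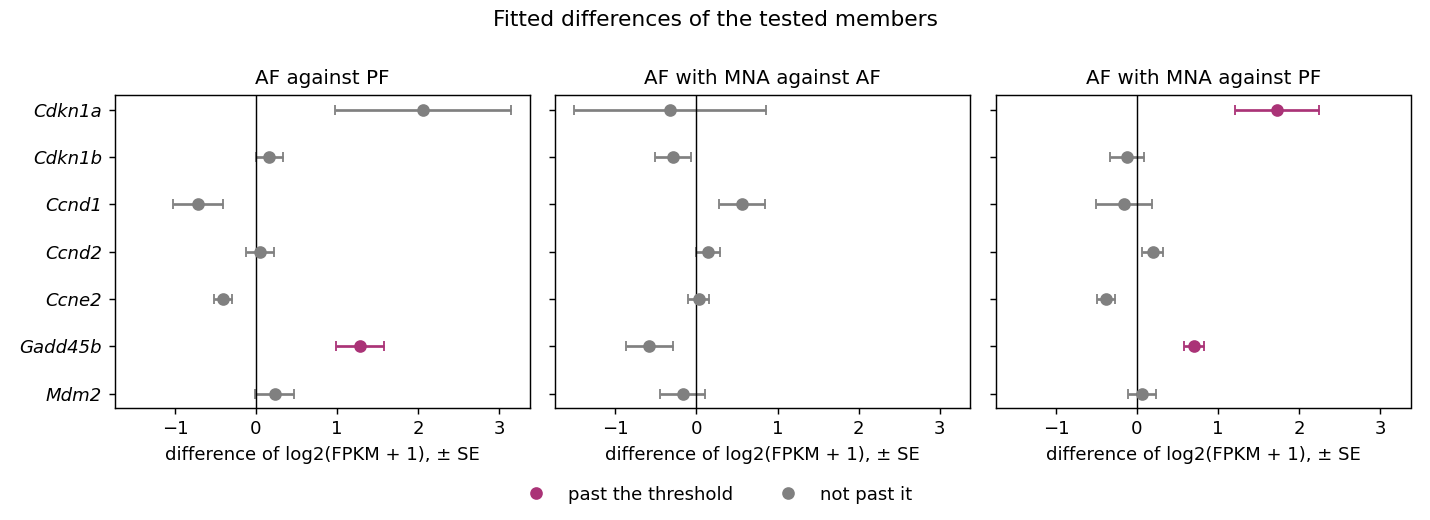
Difference of log2(FPKM + 1) with its limma SE for the 7 tested members in each comparison of 3 against 3 libraries, with genes past the threshold in purple. The interval of Cdkn1a is the widest in AF against PF (2.06 ± 1.08), and Gadd45b passes in both comparisons with PF, which share the same 3 PF libraries.

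Mki67, which encodes the Ki-67 antigen of cycling cells, and Top2a, the topoisomerase that untangles chromosomes before mitosis, were close to the lower limit of the data. Mki67 was at 0.21, 0.16 and 0.15 FPKM in the PF livers, against 0.07, 0.31 and 0.06 FPKM in AF. Top2a was at 0.11, 0.16 and 0.15 FPKM in the PF livers, against 0.07, 0.27 and 0.07 FPKM in AF. For both genes AF replicates 1 and 3 were below all PF libraries and AF replicate 2 was above them. The exact permutation test gave p = 1 for each (two-sided, 3 libraries a group). A level of 0.06 FPKM for Mki67 stands for a mean coverage of 0.435 reads per base, so that few reads stand behind these values. AF replicate 2, in which both markers, Cdkn1a, Gadd45b and Mdm2 were highest, also had the highest summed Kupffer cell markers (95.7 FPKM) and erythroid markers (651 FPKM), whose part in these levels was not tested.

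The second comparison asks how the same genes differed when alcohol-fed mice also received MNA (AF with MNA against AF). Of the 7 tested members 0 passed the threshold, against 1.98% of 12214 tested genes, and 0 members had an unadjusted limma p under 0.05 (5.22% of tested genes). By the linear model with a library-size covariate, 1 member, Gadd45b, passed, against 0.868% of tested genes under that model. In no member did the 2 groups separate, which they did for 10.1% of tested genes, and 0 passed an adjusted p of 0.05 (0.0491% of tested genes), their adjusted limma p-values running from 0.940 to 1.00. The median log2 ratio of the 7 members was -0.25, and that of all tested genes was 0.01.

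Gadd45b was at 1.29, 1.08 and 1.02 FPKM in AF with MNA, a narrow range whose upper end overlapped AF replicate 3. Its mean was 2.11-fold below that of AF (log2 ratio -1.07, difference on the log2(FPKM + 1) scale -0.58 ± 0.29, SE, limma adjusted p = 0.940). Without AF replicate 3 it passed the threshold (log2 ratio -1.38), and without AF replicate 2 the log2 ratio was -0.44. Cdkn1a was at 4.96, 1.23 and 8.39 FPKM with MNA, all inside the AF range. Its log2 ratio of -1.38 (limma adjusted p = 0.999) became 0.96 without AF replicate 2.

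Ccnd1 was at 10.31, 4.89 and 7.33 FPKM with MNA, with 2 of 3 libraries above the AF range (log2 ratio 0.68, limma adjusted p = 0.940). Cdkn1b, at 6.25, 4.77 and 3.33 FPKM, and Ccnd2, at 1.83, 1.68 and 1.55 FPKM, overlapped AF. Ccne2 was at 0.71, 0.48 and 0.40 FPKM, close to AF in all 3 libraries (log2 ratio 0.08, limma adjusted p = 1.00). Mdm2 was at 2.61, 2.38 and 4.16 FPKM, again inside the AF range. AF with MNA replicate 3 held the highest value of its group for both Mdm2 and Cdkn1a.

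The untested members also overlapped AF. Mki67 was at 0.09, 0.25 and 0.17 FPKM with MNA, Top2a at 0.11, 0.21 and 0.09 FPKM and Gadd45a at 0.28, 0.44 and 0.66 FPKM. The group mean of Top2a was 0.137 FPKM and that of Gadd45a 0.460 FPKM in both groups (exact permutation p = 1 for each and p = 0.8 for Mki67, two-sided, 3 libraries a group).

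Set against pair-fed mice, the alcohol-fed mice given MNA showed 2 members past the threshold, Gadd45b and Cdkn1a, against 3.89% of 12276 tested genes (1.94% higher). This comparison shares the PF libraries with the first and the MNA libraries with the second. Of the tested members, 3 had an unadjusted limma p under 0.05 (14.5% of tested genes) and did not overlap (21.4% of tested genes, 9.54% higher and 11.9% lower), namely these 2, which were higher, and Ccne2, which was lower, and 0 passed an adjusted p of 0.05 (0.432% of tested genes). The median log2 ratio of the members was 0.11, beside -0.02 over all tested genes.

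Gadd45b rose 3.61-fold over PF in mice given MNA (difference on the log2(FPKM + 1) scale 0.70 ± 0.12, SE, limma adjusted p = 0.107), and all 3 libraries lay above the highest PF library. It did not pass with the coefficient on the log2(FPKM + 1) scale, 0.70, as the fold change. Cdkn1a rose 9.17-fold, with a difference of 1.73 ± 0.52 on the log2(FPKM + 1) scale (SE, limma adjusted p = 0.257). Its log2 ratio of the means, 3.20, ran from 2.55 to 3.65 with 1 library left out. Endothelial markers were likewise higher in each library with MNA than in each PF library, and 8 of 8 tested were higher by their means (median log2 ratio 0.60). Of the Kupffer cell markers 5 of 7 were higher by their means (0.11) and of the erythroid markers 1 of 5 (-0.17), and the part of these markers in the result was not tested. The lowest library with MNA for Cdkn1a, at 1.23 FPKM, was above the highest PF library, at 0.79 FPKM. Without PF replicate 3, where Cdkn1a was lowest, the call was lost (log2 ratio 2.78), as it was with all 9 libraries in the limma fit (adjusted p = 0.577) and under the library-size covariate (limma's lmFit, adjusted p = 0.548). Ccne2 lay below PF in every library (log2 ratio -0.90, limma adjusted p = 0.237). It passed without AF with MNA replicate 1, the library of this group with the highest intron signal (log2 ratio -1.17). Cdkn1b, Ccnd1, Ccnd2 and Mdm2 overlapped PF, with log2 ratios of -0.12, -0.20, 0.30 and 0.11 and adjusted limma p-values from 0.563 to 0.910.

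**Figure D3:**
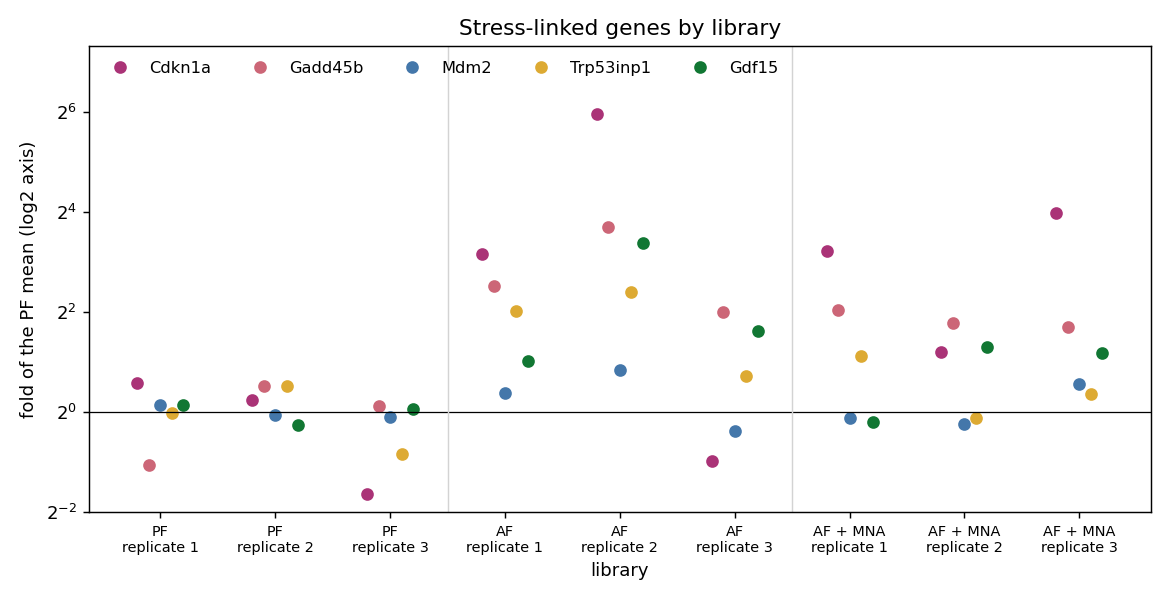
Level of 3 members and of the p53 targets Trp53inp1 and Gdf15 in each library, as a fold of the mean of the 3 PF libraries (log2 axis, horizontal line at 1). AF replicate 2 holds the highest value of all 5 genes, and AF replicate 3 is back in the PF range for Cdkn1a while Gadd45b is not.

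Other genes of the pathway were read in 5 lists of 113 genes in all. In AF against PF, 57 of these were tested and 3 passed the threshold (5.26%, beside 4.3% of all tested genes). The list of p53 targets also holds Trp53 itself and leaves out the members. Of its 22 tested genes, Trp53inp1 and Gdf15 rose past the threshold and 0 fell past it, and the median log2 ratio was -0.07. Trp53inp1, which supports p53 activity and autophagy, averaged 5.33 FPKM in the PF livers, against 19.6 FPKM in AF (log2 ratio 1.88, limma adjusted p = 0.283). Gdf15, a secreted stress cytokine, averaged 0.683 FPKM in the PF livers, against 3.56 FPKM in AF (log2 ratio 2.38, limma adjusted p = 0.367). Without AF replicate 2 its log2 ratio was 1.36, and it did not pass when PF replicate 1 (2.47), PF replicate 2 (2.27) or PF replicate 3 (2.42) was left out. Sesn2 (log2 ratio 0.85), Xpc (-0.51) and Ccng1 (-0.36) had an unadjusted limma p under 0.05 without reaching the ratio.

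Of 19 tested E2F and DNA replication genes, 1 passed in AF, and the median log2 ratio was -0.14. Mcm10, which helps to load and start the replication machinery, was at 3.38, 4.77 and 3.55 FPKM in the PF livers, against 1.3, 1.46 and 1.66 FPKM in AF. It fell in every AF library below every PF library (log2 ratio -1.40, limma adjusted p = 0.0806). Rrm2, a subunit of ribonucleotide reductase with an unadjusted p under 0.05, had a log2 ratio of 0.86 (limma adjusted p = 0.254). Of 10 tested cyclins, CDKs and Cdc25 phosphatases 0 passed, with a median of -0.31. In that list Cks1b (-0.84), Cks2 (-0.90) and Cdk2 (-0.80), the kinase that Ccne2 activates, had an unadjusted limma p under 0.05. Of 6 tested CDK inhibitors and pocket proteins 0 passed (median -0.21), and the INK4 inhibitor Cdkn2d had an unadjusted limma p under 0.05 (log2 ratio -0.89). Of the mitosis list, 25 of 26 genes were found and 0 reached the minimum level in this comparison, the highest value in any library being 0.78 FPKM for Birc5.

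In AF with MNA against AF, 1 of 57 tested genes of the 5 lists passed (1.75%, beside 1.98% of all tested genes). Trp53inp1 fell to a mean of 7.85 FPKM (log2 ratio -1.32, limma adjusted p = 0.940). This call was lost when AF replicate 1 (log2 ratio -1.24), AF replicate 2 (-0.96), AF with MNA replicate 2 (-1.07) or AF with MNA replicate 3 (-1.23) was left out. Mcm3, a subunit of the replicative helicase with an unadjusted p under 0.05, had a log2 ratio of -0.70 (limma adjusted p = 0.940). In AF with MNA against PF, 3 of 59 passed (5.08%, beside 3.89%), all lower than in PF: the replication gene Mcm10 (log2 ratio -1.39), the transcription factor E2f1 (-1.26) and Cdkn2d (-1.03), whose log2 ratio in AF against PF is given above. With 1 library left out, Mcm10 passed each time. The call of E2f1 was lost without PF replicate 1 (-1.27), PF replicate 3 (-0.97) or AF with MNA replicate 3 (-1.01). That of Cdkn2d was lost without PF replicate 1 (-0.99), PF replicate 3 (-0.91), AF with MNA replicate 1 (-0.99) or AF with MNA replicate 2 (-0.91). With an unadjusted limma p under 0.05 and a smaller ratio, the p53 targets Ccng1 (-0.46), Sesn1 (-0.61), Xpc (-0.44) and Sesn2 (0.58), the replication gene Cdt1 (-0.78) and the cyclins Ccnf (-0.50) and Ccnh (-0.36) were also found. Of the mitosis list 1 gene, Birc5, was tested there and did not pass (log2 ratio 0.20). The median log2 ratios there were -0.41 for the cyclins, CDKs and Cdc25 phosphatases, -0.06 for the inhibitors, -0.17 for the replication genes and -0.05 for the p53 targets.

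**Figure D4:**
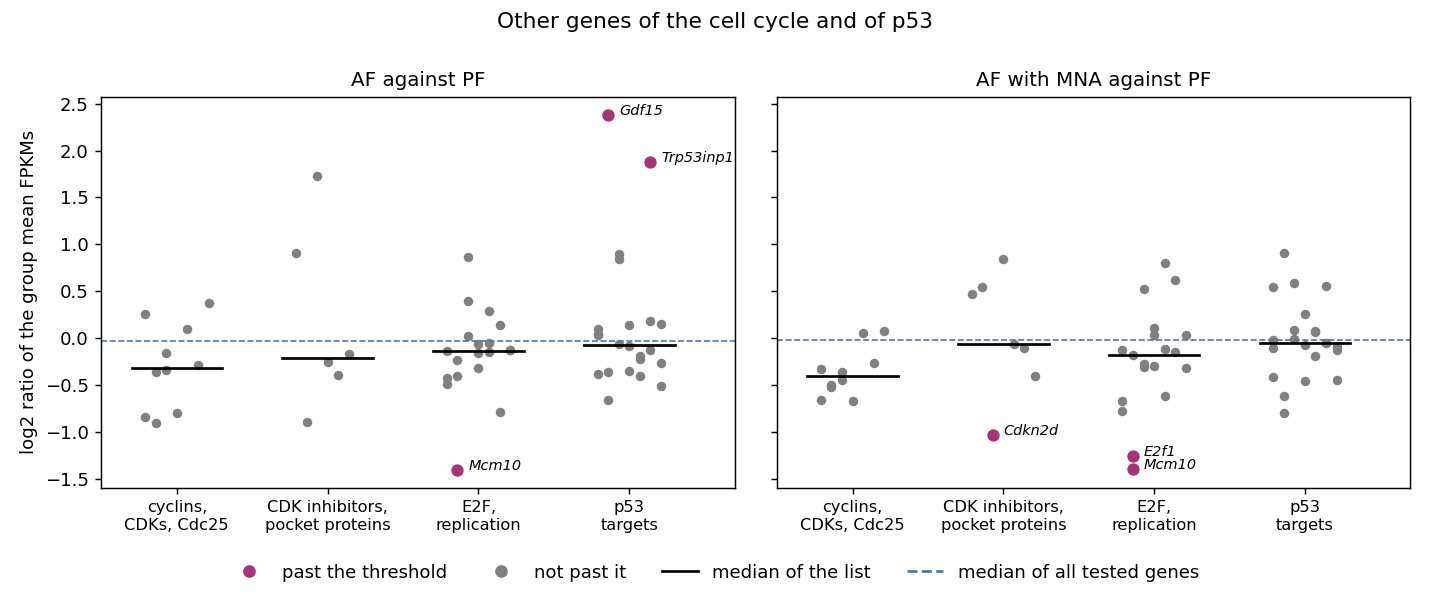
Log2 ratio of group mean FPKMs of each tested gene in 4 lists of cell cycle and p53 genes, for the 2 comparisons with PF, which share the PF libraries. Purple points passed the threshold, black lines are list medians and the dashed line is the median of all tested genes (-0.03 and -0.02).

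The tested genes whose pattern over the 9 libraries was most like that of Gadd45b were Mfap1b (Pearson r = 0.976), Fam134b (r = 0.962) and Gm7039 (r = 0.956), given as a description over 9 libraries of 3 groups. Fam134b, a receptor for the breakdown of endoplasmic reticulum by autophagy, was at 5.16 to 13.16 FPKM in PF, 17.51 to 47.07 FPKM in AF and 12.84 to 14.84 FPKM with MNA. Mfap1b has a near-identical copy in the genome, so that its level is uncertain.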

How the data were processed

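Liver RNA was measured in 9 strand-specific, rRNA-depleted paired-end libraries, grouped by the sample labels. The authors made the gene and lncRNA FPKM values with StringTie (1.3.4 in the submitters' notes), rounded to 2 decimals for genes. The authors' lncRNA table also gives read coverage (a signal per base, not scaled for depth), used here for the depth of the libraries. The authors' coding potential scores (CPC score and CNCI score) were not used. CircRNA junction reads were deposited as counts without normalization, beside a normalized signal. The genome build is not given in the sources used here. Of the known lncRNA transcripts, 7841 were found in GENCODE M21 (GRCm38), 7708 with the same start and end, so coordinates are given as GRCm38. Gene FPKM values keep no counts, so that only the spread between libraries gives their precision. Nothing in the labels says more of replicates than their number, so p-values measure the spread between these libraries.

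Entries with a known transcript that averaged 0.5 FPKM or more in the 6 libraries of a comparison were tested on log2(FPKM + 1) with limma 3.58.1 (lmFit, eBayes with an intensity trend) in R 4.3.3, with Benjamini-Hochberg adjustment over all tested genes, and the script was tested on simulated data. A log2 ratio is that of the group mean FPKMs. A difference on the log2(FPKM + 1) scale understates the change of low genes. Exact permutation tests were two-sided. Python 3.11.15, pandas 2.3.3, numpy 2.4.6 and matplotlib 3.10.9 were used. Alternatives were a pseudocount of 0.1, equal medians, no intensity trend, all 9 libraries, a replicate block, the coefficient as fold change, no minimum or a minimum of 2 FPKM, adjusted p-values, a library-size covariate, and each library left out. The library-size covariate was the sum of log2(FPKM + 1) over genes with signal below the upper quartile of a library, not its sequencing depth. Leaving out libraries for the list genes past the threshold was added after seeing the data. All members were named, with up to 4 genes past the threshold from each list, lists with 5 or fewer in full, and the 3 genes most like each member past the threshold in AF against PF or in AF with MNA against AF. Gadd45g and the genes with only an unadjusted p under 0.05 were named after their values were seen. The members and lists were chosen with earlier results of these data known, the motifs after the members' values were seen, and the p53 motifs also after the sequences were seen.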

Additional observations from a re-analysis of the deposited data

Results flagged for a closer look

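Features outside the gene levels carried signal under the names of members in single libraries, above the level in the PF libraries. An assembled antisense transcript inside an intron of Ccne2 (GRCm38, chromosome 4, 11196834 to 11197100) reached 1.77 FPKM in AF replicate 1, while the other 8 libraries list it at 0. A second antisense transcript in a Ccne2 intron (chromosome 4, 11197412 to 11197687) had 1.83 FPKM in AF with MNA replicate 1 and 0.187 FPKM in AF with MNA replicate 3, and was listed at 0 in PF and AF. An assembled transcript within Gadd45a, on the strand of the gene (chromosome 6, 67035774 to 67036022), had 1.49 FPKM in AF replicate 3, 0.438 FPKM in AF with MNA replicate 1 and at most 0.0906 FPKM in PF. AF replicate 3 and AF with MNA replicate 1 are the 2 libraries with the highest summed intron signal.

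A circRNA of Ccne2 (chromosome 4, 11193926 to 11197299) had 3 junction reads in AF replicate 1 and 0 in the other 8 libraries. A circRNA of Mki67 (chromosome 7, 135713757 to 135714039) had 5 junction reads in AF replicate 3 and 0 in the other 8. A library held 1588 to 2545 such reads in all, and a count of 0 allows up to 3 reads by counting error alone.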

How the results depend on the processing

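Percentages here are shares of all tested genes under the same setting. In AF against PF, 1 member passed the threshold (4.3%). The number was 0 at a minimum of 2 FPKM (3.59%), which leaves Gadd45b untested, and 0 with adjusted p-values (0.326%). It was 2 with the library-size covariate (Cdkn1a and Gadd45b, 2.73%). With 1 library left out it was 1 to 3 (4.21% to 6.27%, the highest without AF replicate 3). In AF with MNA against AF it was 0 (1.98%), 1 with the covariate (Gadd45b, 0.868%) and 0 to 1 with 1 library left out (1.72% to 3.03%). In AF with MNA against PF it was 2 (3.89%) and 1 with all 9 libraries (Gadd45b, 3.89%). There it was 1 with the coefficient as fold change (Cdkn1a, 1.87%) and 1 at a minimum of 2 FPKM (Cdkn1a, 3.08%). It was 0 with adjusted p-values (0.432%), 1 with the covariate (Gadd45b, 2%), and 1 to 3 with 1 library left out (3.8% to 4.46%). With a pseudocount of 0.1, equal medians, no intensity trend or no minimum, no count moved. Where not stated, the cause was not tested.

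Most alternatives keep the ratio of group means, so that its direction could not turn under them. The exceptions were equal medians, the coefficient as fold change and 1 library left out. Among these, directions turned only where 1 library was left out. The log2 ratios then ran from -0.028 to 0.33 for Ccnd2 in AF against PF. In AF with MNA against AF they ran from -2.03 to 0.96 for Cdkn1a, -0.066 to 0.25 for Ccne2 and -0.54 to 0.065 for Mdm2, the sign turning without AF replicate 2. In AF with MNA against PF they ran from -0.36 to 0.085 for Cdkn1b, -0.50 to 0.24 for Ccnd1 and -0.17 to 0.27 for Mdm2. None of these 7 had passed the threshold. Over all alternatives, 298 log2 ratios of members kept their direction and side of the threshold, 11 reversed, 10 came past it and 7 lost it. Where an alternative keeps the ratio of group means, only the side of the threshold could change, so the 298 do not measure how stable the directions are.

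With a replicate block, 1, 0 and 2 members passed in the 3 comparisons, as without it (4.58%, 2.13% and 3.98% of tested genes). The block moved the unadjusted limma p of Ccnd1 in AF with MNA against AF from 0.0935 to 0.00994. In AF against PF it moved that of Ccnd1 from 0.0583 to 0.0496 and that of Ccne2 from 0.00898 to 0.0272. Same-numbered libraries did not deviate together across genes (correlations of -0.08 to 0.06). Such correlations cannot show whether the numbers pair the mice. Levels under 0.5 FPKM limit what can be said of Mki67, Top2a, Gadd45a and the mitosis genes. They also limit the folds of Gadd45b over PF, where its mean was 0.313 FPKM. Every p-value is limited by 3 libraries a group.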
